A study of Homo sapiens with 4 samples.

Results

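NDRG1 and 9 other genes that cells switch on when oxygen is short were followed in Huh7, an established human hepatoma line. The members were VEGFA, CA9, BNIP3, BNIP3L, ANKRD37, EGLN3, HIF1A, ADM, DDIT4 and NDRG1, taken by symbol from a table of read counts for 42169 genes; all 10 were found, and each matched 1 gene of the GENCODE 29 annotation on hg38. The set is the part of the hypoxia response that lies outside glycolysis, and it was selected on the read counts of this same comparison, with the difference of NDRG1 between the clones in view. The fold changes of the members are therefore given as a description, with no p-value. The question the samples address is how transcript levels differ when TTP and BRF1 are absent.

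The first clone, called DKO, was clone 18 and lacked both TTP and BRF1; the second was control clone 1, whose genotype is given as WT. TTP is the product of ZFP36, and BRF1 here is taken to be butyrate response factor 1, encoded by ZFP36L1. They are related zinc finger proteins that attach to AU-rich stretches near the 3′ ends of mRNAs and hasten deadenylation and decay. Cells of both clones were kept in DMSO for 3 h and then in the transcription blocker actinomycin D (5 µg/ml, 10 min), so no group lacked either agent. Each clone gave 2 libraries of total RNA. Each genotype is 1 clone, so genotype and clone cannot be told apart, and no oxygen level is stated in the labels.

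The libraries held 10271428 and 16430228 counts on genes in DKO and 9685798 and 12507263 in control. The targeted mRNAs were not lower in DKO: ZFP36 averaged 36.8 ± 0.897 CPM in DKO and 26.7 ± 4.74 CPM in control, and ZFP36L1 averaged 133 ± 20.3 CPM in DKO and 122 ± 18.6 CPM in control (SD, n = 2 each; CPM is the count scaled to the library's total on genes). Neither passed the test, so mRNA abundance is no check of the knockout. All 8 hepatocyte and hepatoma markers were measured, with summed levels of 28107 and 24616 CPM in DKO and 26560 and 25892 CPM in control, most of it ALB, APOB and AFP. In that list AFP fell to 3547 ± 228 CPM in DKO, against 7823 ± 365 CPM in control (log2 fold change -1.13, SE 0.25, edgeR adjusted p = 0.0159), and TTR rose to 149 ± 9.17 CPM in DKO, against 87.6 ± 13.2 CPM in control (0.78, SE 0.20, edgeR adjusted p = 0.0297). AFP did not pass without DKO replicate 2 (-1.09), and TTR did not without DKO replicate 1 (0.87), DKO replicate 2 (0.70) or control replicate 2 (0.66). With ERCC spike-in totals as library sizes neither passed (AFP -1.82, TTR 0.12). Of 11 markers of leukocytes, fibroblasts and endothelium, CD3E, CDH5 and VWF had 0 counts in every library, PTPRC was at most 0.103 CPM, and the summed level was 125 and 123 CPM in DKO and 83.5 and 126 CPM in control, most of it COL1A2. The mitochondrial genome's share of counts was 3.59% and 1.16% in DKO and 2.53% and 0.448% in control. Of 13359 genes tested with edgeR's quasi-likelihood test, 718 passed a Benjamini-Hochberg adjusted p of 0.05, which is 5.37% of them; 2.24% were higher and 3.14% lower in DKO. The count was 218 without DKO replicate 2, 235 without DKO replicate 1 and 2172 without control replicate 1.

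In cells with enough oxygen, prolyl hydroxylases mark the alpha subunits of the hypoxia-inducible factors (HIF) and the VHL ubiquitin ligase has them degraded. When oxygen falls, the alpha subunits persist, pair with ARNT and bind short ACGTG or GCGTG sequences near their target genes. HIF1A encodes the best known alpha subunit and is controlled mainly as a protein, whereas the other 9 members are textbook targets of the factor. They act in blood vessel growth and dilation (VEGFA, ADM), pH control (CA9), mitophagy (BNIP3, BNIP3L), feedback on the factor itself (EGLN3), restraint of mTORC1 (DDIT4), and stress responses and differentiation (NDRG1).

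NDRG1 was lower in DKO, with a log2 fold change of -1.93, and the other tested members lay within 0.29 of 0 on that scale. Of the 10 members, 8 passed the filter on low counts and 1 of those 8, NDRG1, lay past the adjusted p of 0.05. Among all genes tested 3.14% lay past it in the lower direction, and since the set was chosen with this contrast known nothing is read from that count. With ERCC spike-in totals as library sizes, NDRG1 was again the 1 member past it, against 2.30% of all genes lower and 0.165% higher. The other 7 were all negative on that scaling, from -0.91 to -0.39. Their median was -0.67 against -0.68 for all genes tested, so they lay around the median gene. With TMM scaling on gene counts the other 7 ran from -0.22 to 0.29 on the log2 scale of DKO over control, with a median of -0.03 against 0.00 for all genes tested, and 3 were positive and 4 negative. In bulk RNA, fewer expressing cells and less RNA per cell cannot be told apart.

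**Figure D1:**
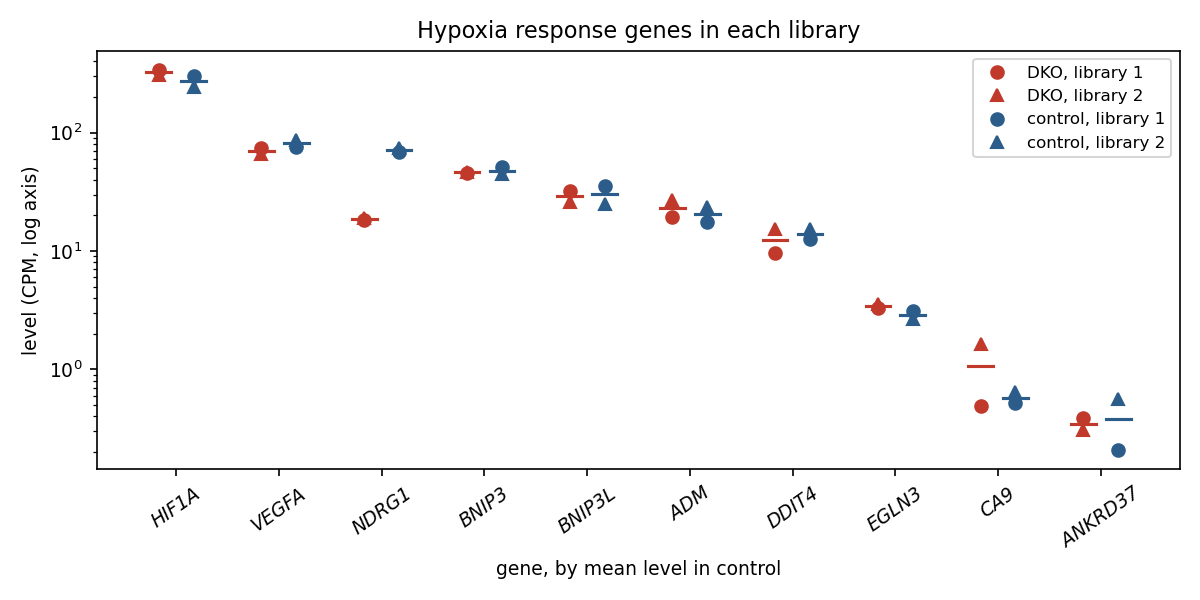
Level of each of the 10 genes in CPM, on a log axis, with DKO (red) left of control (blue); circles and triangles are libraries 1 and 2 and bars are the means of 2. NDRG1 stands at 18.4 and 18.9 CPM in DKO and at 69.0 and 73.6 CPM in control, while the levels of the other genes lie close together between the clones apart from CA9 and ANKRD37, the genes with the fewest counts, whose libraries spread within a clone.

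NDRG1 encodes a cytoplasmic protein of the alpha/beta hydrolase fold that is induced by hypoxia and by differentiation and repressed by MYC proteins. It lies on chromosome 8 (133237171 to 133302022, minus strand, hg38) and overlaps no other annotated gene. NDRG1 had 18.4 and 18.9 CPM in the DKO libraries, against 69.0 and 73.6 CPM in the control libraries. These are 189 and 310 counts in DKO and 668 and 921 counts in control. Both DKO libraries lay far below both control libraries, and the libraries of a clone were close to each other. The log2 fold change of DKO over control was -1.93 (SE 0.20), and the mean was 3.83 times higher in control. Over the 4 fits that each left out 1 library the value ran from -2.01 to -1.85. Of all genes tested, 65 (0.487%) had a log2 fold change at or below that of NDRG1.

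The chromosomal surroundings of NDRG1 were lower in DKO as well. Among the 50 tested protein-coding genes nearest to it, 25 on each side, the median log2 fold change was -0.70, 46 were negative, 21 passed in the lower direction and 0 in the higher. The median stayed between -0.74 and -0.68 in the fits without 1 library. NDRG1 was lower than that median by 1.22 log2 units, and 2 of the 50 neighbours, KHDRBS3 (-2.15) and RHPN1 (-2.31), had lower values than NDRG1. The thyroglobulin gene TG, the nearest tested gene on one side, stood at -1.82 (SE 0.48, edgeR adjusted p = 0.0382) from low levels, and the sialyltransferase gene ST3GAL1, the nearest on the other side, at -0.76 (SE 0.23, edgeR adjusted p = 0.0670). MYC, whose product represses NDRG1, starts at -5.50 Mb from the NDRG1 start (negative towards the centromere) and stood at -0.60 (SE 0.21, edgeR adjusted p = 0.107). These neighbours were named after their values were seen.

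The shift was not even along chromosome 8. In bins of 20 Mb measured from the NDRG1 start, the median over tested protein-coding genes was 0.46 in the bin farthest from it at the other end of the chromosome (22 genes), 0.13 in the next (81 genes) and -0.13 in the bin after that (48 genes). It was -0.50 in the 20 Mb before NDRG1 (42 genes, of which 39 were negative) and -0.86 in the stretch beyond it to the chromosome end (71 genes, of which 69 were negative and 33 passed in the lower direction). Over the whole chromosome the median was -0.25 (407 genes). The part of these surroundings in the NDRG1 value was not tested.

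**Figure D2:**
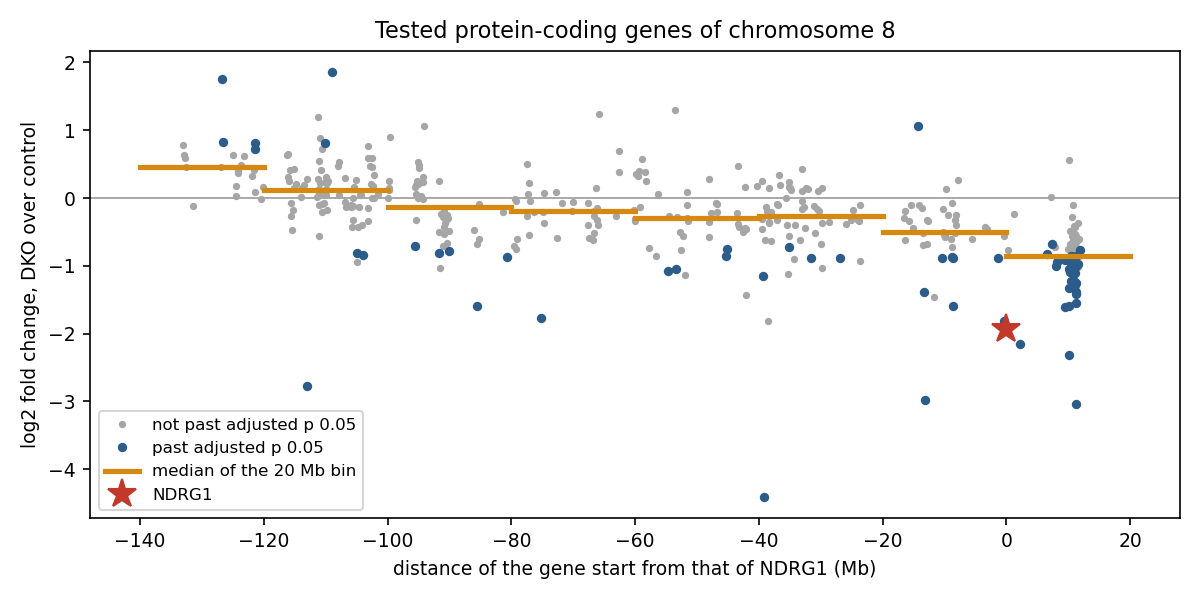
Log2 fold change of DKO over control for the tested protein-coding genes of chromosome 8 against the distance of their start from that of NDRG1 in Mb; blue points passed an adjusted p of 0.05, orange lines are medians of 20 Mb bins and the star is NDRG1. The bin medians go from 0.46 at the far end to -0.86 beyond NDRG1, and NDRG1 at -1.93 lies below both neighbouring bins.

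For the other 9 members the medians of up to 25 tested neighbours on each side ran from 0.01 (HIF1A) to 0.18 (ANKRD37), or from -0.26 (HIF1A) to 0.28 (EGLN3) with 10 on each side, and at most 3 neighbours of a member passed in the lower direction. BNIP3L is also on chromosome 8, at -107 Mb from NDRG1, and its 50 neighbours had a median of 0.09.

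**Figure D3:**
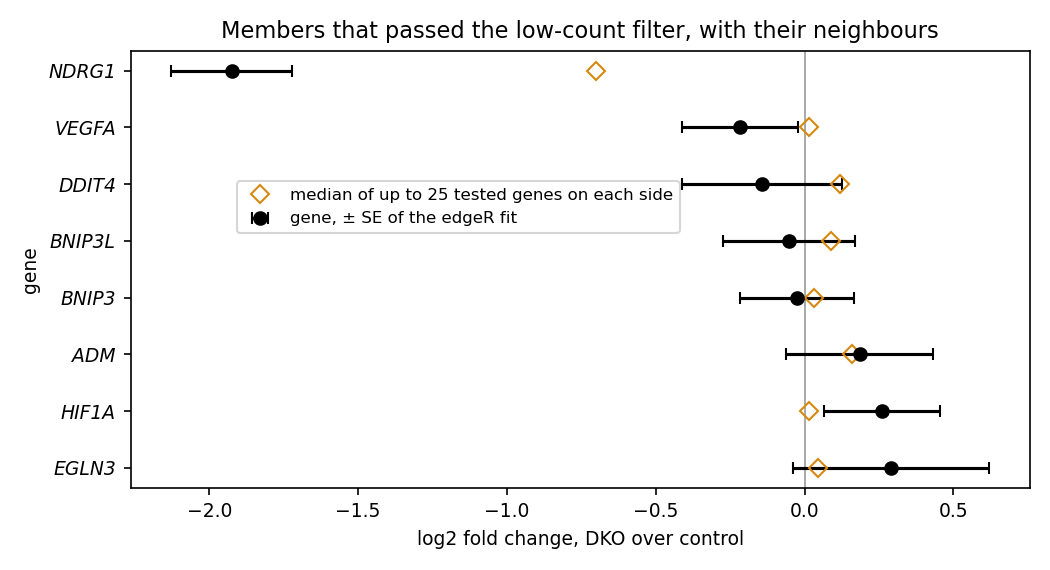
Log2 fold change of DKO over control for the 8 members that passed the filter on low counts (points, with bars of 1 SE of the edgeR fit) and the median of up to 25 tested genes on each side (diamonds). NDRG1 is at -1.93 with neighbours at -0.70, and the other 7 members lie between -0.22 and 0.29 with neighbours between 0.01 and 0.16.

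HIF1A encodes the oxygen-regulated subunit of the factor, and its mRNA had the highest level per length of the set. HIF1A had 340 and 308 CPM in the DKO libraries, against 302 and 244 CPM in the control libraries. The DKO libraries were the 2 highest, by a small margin over control library 1. Of all tested genes, 49.9% had no overlap between clones in one direction or the other. The log2 fold change was 0.26 (SE 0.20) and did not pass. The gene overlaps the RNAs HIF1A-AS1 and HIF1A-AS2 on the opposite strand, with the strand setting of the counting not given in the sources used here.

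EGLN3 encodes a prolyl hydroxylase that is itself induced by the factor and feeds back on it. EGLN3 had 3.31 and 3.59 CPM in DKO, against 3.1 and 2.64 CPM in control, from 34 and 59 counts in DKO and 30 and 33 counts in control. The DKO libraries were above the control libraries, with a log2 fold change of 0.29 (SE 0.33) that did not pass. A lack of overlap in either direction was seen for 49.9% of all tested genes. The largest SE of the 8 tested members belonged to this gene.

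VEGFA encodes the main growth factor for blood vessels and ADM the vasodilator peptide adrenomedullin. VEGFA had 73.7 and 65.7 CPM in DKO, against 76.3 and 86.4 CPM in control. Both DKO libraries were below both control libraries, in a table where 49.9% of tested genes had no overlap between clones. The log2 fold change was -0.22 (SE 0.19), which did not pass. ADM had 19.5 and 27.1 CPM in DKO, against 17.7 and 23.7 CPM in control. The clones overlapped for ADM (log2 fold change 0.19, SE 0.25), and library 2 was the higher one in both clones.

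BNIP3 and BNIP3L encode related mitochondrial outer membrane proteins that mark mitochondria for mitophagy. BNIP3 had 46.1 and 46.9 CPM in DKO, against 51.0 and 44.5 CPM in control, and BNIP3L had 32.0 and 25.9 CPM in DKO, against 35.4 and 25.2 CPM in control. The clones overlapped for both genes. The log2 fold changes were -0.03 (SE 0.19) for BNIP3 and -0.05 (SE 0.22) for BNIP3L. The annotation holds 39 BNIP3 pseudogenes, with the handling of reads with several matches not given in the sources used here, so the BNIP3 level is uncertain.

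DDIT4 encodes REDD1, which restrains mTORC1 under stress. DDIT4 had 9.64 and 15.3 CPM in DKO, against 12.6 and 15.4 CPM in control. The clones overlapped, and the log2 fold change of -0.14 (SE 0.27) depended on the libraries: it was -0.55 without DKO replicate 2 and 0.16 without DKO replicate 1.

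CA9, a cell surface carbonic anhydrase, and ANKRD37, an ankyrin repeat protein, are both strongly induced by hypoxia, and both rested on few counts in all 4 libraries. CA9 had 0.487 and 1.64 CPM in DKO, against 0.516 and 0.640 CPM in control, which are 5 and 27 counts and 5 and 8 counts. DKO library 2 was the highest, with an exact Poisson interval (95%, counting error only) of 1.08 to 2.39 CPM, which overlapped that of DKO library 1 (0.158 to 1.14 CPM). ANKRD37 had 4 and 5 counts in DKO and 2 and 7 counts in control, or 0.389 and 0.304 CPM and 0.206 and 0.560 CPM. Neither gene passed the filter. Without a filter the log2 fold changes were 0.98 (SE 0.56) for CA9 and -0.21 (SE 0.89) for ANKRD37, and neither passed.

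Levels of different genes can be compared only per length. CPM per kilobase of annotated exon (RPKM) put HIF1A first in control at 53.0 ± 7.92, followed by BNIP3 (8.96 ± 0.870), ADM (7.60 ± 1.56), NDRG1 (7.26 ± 0.336), BNIP3L (7.03 ± 1.68), DDIT4 (6.79 ± 0.947) and VEGFA (5.64 ± 0.496; SD, n = 2 throughout). From BNIP3 to DDIT4 the neighbours in this order differed by less than the larger SD of each pair, while DDIT4 and VEGFA differed by more than either SD. EGLN3 (0.390 ± 0.0441), CA9 (0.346 ± 0.0523) and ANKRD37 (0.148 ± 0.0968) came last, and EGLN3 and CA9 differed by less than the SD of CA9. In DKO, NDRG1 was at 1.90 ± 0.0336 RPKM, below VEGFA at 4.83 ± 0.393 RPKM and DDIT4 at 6.05 ± 1.94 RPKM. All annotated exons were counted in the lengths, which lowers the value of a gene with many isoforms such as VEGFA. The lengths were 14431 bases for VEGFA and 9823 for NDRG1, against 2718 for ADM and 2058 for DDIT4. The rank of NDRG1 therefore also depends on this choice.

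Differences between libraries of 1 clone do not use the contrast by which the set was chosen. The log2 ratio of replicate 2 over replicate 1 was 0.48 in DKO and 0.42 in control for ADM, and 0.66 in DKO and 0.29 in control for DDIT4. It was -0.31 in DKO and -0.49 in control for BNIP3L, and -0.15 in DKO and -0.31 in control for HIF1A. NDRG1 had 0.04 in DKO and 0.09 in control. The median over all genes tested was -0.03 in DKO and -0.06 in control, with the middle 90% of genes between -0.64 and 0.51 in DKO and between -0.88 and 0.61 in control. Of the tested members, DDIT4 in DKO was outside that range. ADM and DDIT4 were higher in replicate 2 of both clones, BNIP3L and HIF1A lower in it, and NDRG1 nearly level.

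The sequence in which the factor binds was searched in RefSeq promoter windows (GRCh38.p14, 250 bases before to 50 after the start), which were matched for 7 members; NDRG1, VEGFA and BNIP3L were not matched. ACGTG or GCGTG on either strand was present for 6 of the 7 (CA9, ANKRD37, BNIP3, DDIT4, ADM and HIF1A) and not in the EGLN3 window, and 48.4% of all 35116 windows hold one. ACGTG alone was present for 4 of the 7, against 21.4% of all windows. Members were counted per gene, with 2 windows for HIF1A, and the shares of all windows per window, so the units differ. The 5 sequences show 1 stretch each from targets whose levels did not pass between the clones or were too low to test, as 30 bases, 5′ to 3′ on the strand of the gene, with every base of a match in capitals. The CA9 window lies at chr9:35673898-35673927 (plus strand), that of ANKRD37 at chr4:185396686-185396715 (plus), that of BNIP3 at chr10:131982040-131982069 (minus), that of DDIT4 at chr10:72273787-72273816 (plus) and that of ADM at chr11:10304960-10304989 (plus).
CA9: tcgtttccaatgCACGTacagcccgtacac
ANKRD37: cagtgtttgtgtACGTGcggccgtggcggg
BNIP3: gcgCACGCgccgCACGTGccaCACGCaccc
DDIT4: agaacgttgcttACGTGcgcccggagtcca
ADM: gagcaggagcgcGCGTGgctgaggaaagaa
In BNIP3 a match on each strand overlaps to give CACGTG, with GCGTG on the opposite strand on both sides. In CA9 the match is on the strand opposite to the gene and begins 18 bases before the start. A match is a description of these letters, not of binding.

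TTP and BRF1 bind UAUUUAU, and this heptamer (TATTTAT in the DNA letters of the annotation, sense strand, overlaps counted) was searched in the longest annotated 3′ UTR of each member. VEGFA and HIF1A had 3 matches each, BNIP3L had 2, and CA9 and NDRG1 had 1. BNIP3, ANKRD37, EGLN3, ADM and DDIT4 had 0. The heptamer was present in 5 of 10 members and in 30.9% of 19450 protein-coding genes with a 3′ UTR. Among the tested genes with a 3′ UTR the share was 36.1%. Of the members with a match, CA9 was not tested. The matches of HIF1A and CA9 are shown with 30 bases each on hg38, as the member with the highest level and the one with 1 match in a short 3′ UTR of 261 bases. The first HIF1A site is at chr14:61747134-61747163 and the second, in which a pair of matches overlaps, at chr14:61747346-61747375 (both plus strand); that of CA9 is at chr9:35681126-35681155 (plus strand).
HIF1A, first site: ctaaagcagtcTATTTATattttctacatc
HIF1A, overlapping pair: atgcaccttttTATTTATTTATttttggct
CA9: aagaaattttttaaaataaaTATTTATaat
The 2 members with 3 matches stood on opposite sides of 0, HIF1A at 0.26 and VEGFA at -0.22, and neither passed. Over all tested genes with a 3′ UTR, the median log2 fold change was 0.04 for 4299 genes with a match, 0.08 for the 871 of them with at least 3, and -0.03 for 7615 with none.

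No gene of the oxygen sensing list passed the test. Among all genes tested 5.37% passed in either direction, and nothing is read from this count. Of 17 genes of the sensing machinery, 15 were tested and 0 passed in either direction with edgeR, 0 with DESeq2 and 0 with limma-voom; 1 was higher and 0 lower at an unadjusted edgeR p under 0.05, and 2 passed when control replicate 1 was left out. Their median was 0.00, as for all genes. EPAS1, the other main alpha subunit, had 411 CPM in DKO and 415 CPM in control. VHL, the substrate receptor of the ligase, stood at -0.40 (SE 0.20, edgeR adjusted p = 0.272), and RBX1, a RING subunit of the same ligase and the leading gene of the list, at 0.48 (SE 0.21, edgeR adjusted p = 0.201).

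The other hypoxia targets outside glycolysis gave a few calls in each direction. Of 44 genes, 41 were tested, 3 rose, 2 fell and 36 did not pass, with a median of -0.02 on the log2 scale. Among all genes tested 2.24% were higher and 3.14% lower, and nothing is read from the counts of this list. The chemokine receptor gene CXCR4 rose to 3.46 ± 1.31 CPM in DKO, against 0.681 ± 0.0587 CPM in control (log2 fold change 2.38, SE 0.46, edgeR adjusted p = 0.00754). CXCR4 rested on few counts, 26 and 72 in DKO and 7 and 8 in control. The cytokine gene MIF rose by 0.85 (SE 0.21, edgeR adjusted p = 0.0302); it overlaps MIF-AS1 on the opposite strand. FAM13A fell to 20.6 ± 1.85 CPM in DKO, against 44.4 ± 4.15 CPM in control (-1.10, SE 0.21, edgeR adjusted p = 0.00654). ZNF395 fell to 26.6 ± 0.702 CPM in DKO, against 47.0 ± 4.48 CPM in control (-0.81, SE 0.20, edgeR adjusted p = 0.0302). It is on chromosome 8, but at -105 Mb from NDRG1, in a bin with a median of 0.13. These calls rested on few libraries, and the count over the list was 0 without DKO replicate 2, 2 without DKO replicate 1 and 14 without control replicate 1. Without DKO replicate 2 none of these 4 passed (FAM13A -1.03, CXCR4 1.87, MIF 0.73, ZNF395 -0.86), without DKO replicate 1 FAM13A (-1.16), MIF (0.96) and ZNF395 (-0.77) did not, and without control replicate 2 MIF (0.71) and ZNF395 (-0.69) did not. With spike-in totals as library sizes, which put the median gene at -0.68, FAM13A was the 1 of these 4 that passed, and CXCR4 stood at 1.65, MIF at 0.18 and ZNF395 at -1.53.

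Among 22 glycolytic targets of the same factor, 20 were tested, 0 rose and 2 fell, against 2.24% higher and 3.14% lower among all genes tested. The median of the list was 0.13, with 12 genes positive and 8 negative. PFKL, the liver phosphofructokinase subunit, stood at -0.84 (SE 0.22, edgeR adjusted p = 0.0343) and the bifunctional enzyme gene PFKFB4 at -1.06 (SE 0.29, edgeR adjusted p = 0.0449). Neither passed without DKO replicate 1 (-0.70 and -0.83) or without DKO replicate 2 (-0.99 and -1.40), and PFKL also not without control replicate 2 (-0.58) or with spike-in totals (-1.59). The count over the list was 4 without control replicate 1. DESeq2 did not call PFKFB4 (-1.08, DESeq2 adjusted p = 0.0790).

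**Figure D4:**
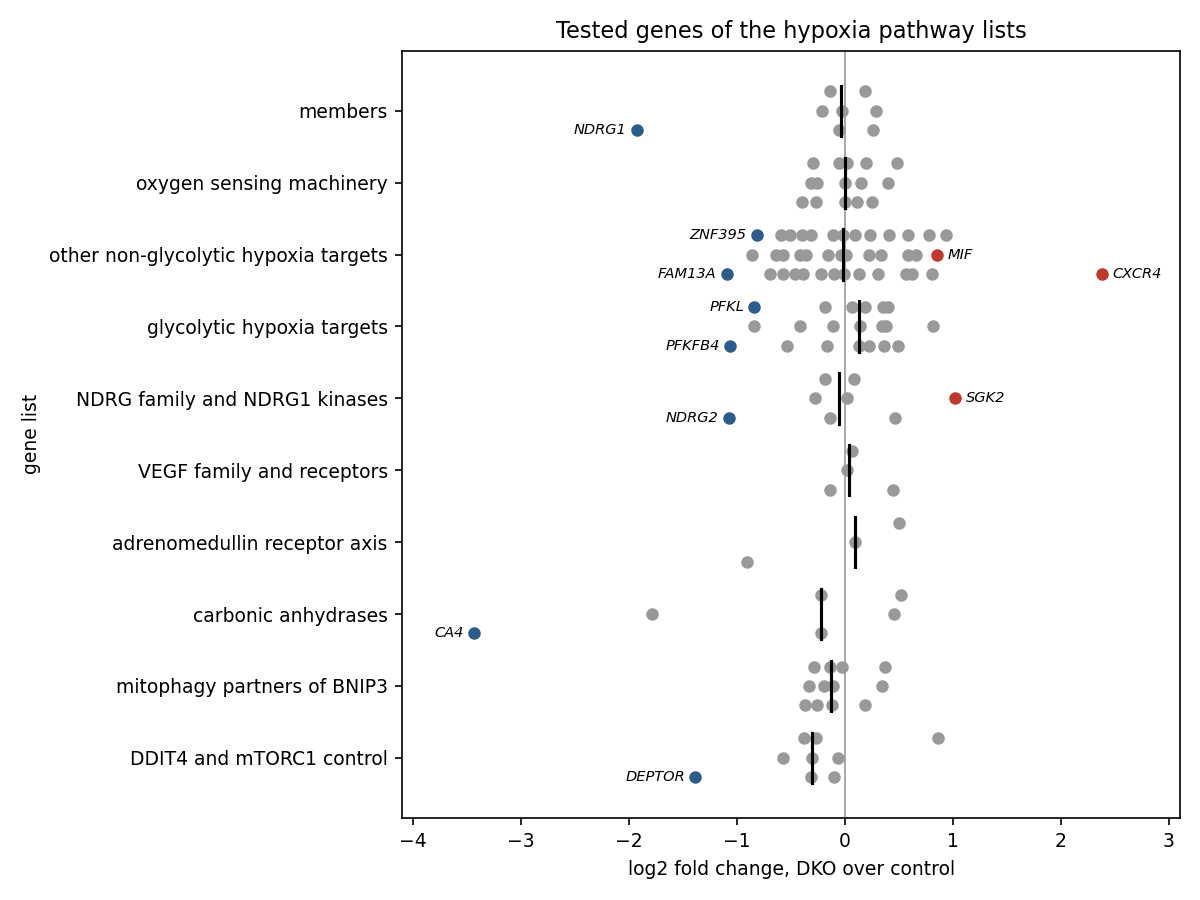
Log2 fold change of DKO over control for tested genes of the set and of 9 related lists, with called genes coloured (blue lower, red higher in DKO) and the list median as a black bar. Medians lie between -0.31 and 0.13, and 10 genes outside the set are named as past an adjusted p of 0.05.

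Relatives and kinases of NDRG1 gave 1 gene in each direction. Of 8 genes, all were tested. The shares among all genes tested were 2.24% higher and 3.14% lower, and nothing is read from these calls. NDRG2, a family member on chromosome 14, fell to 7.68 ± 0.0159 CPM in DKO, against 16.4 ± 1.09 CPM in control (log2 fold change -1.08, SE 0.24, edgeR adjusted p = 0.0166). Its annotated span overlaps 8 other genes. NDRG3 (0.08, SE 0.20) and NDRG4 (-0.28, SE 0.31) did not pass. SGK2, a kinase related to SGK1, rose to 13.1 ± 1.41 CPM in DKO, against 6.50 ± 0.425 CPM in control (1.02, SE 0.25, edgeR adjusted p = 0.0300), while SGK1, which phosphorylates NDRG1, stood at -0.14 (SE 0.21). Neither NDRG2 (-1.06 and -1.10) nor SGK2 (1.14 and 0.88) passed without DKO replicate 1 or without DKO replicate 2, and both kept their direction. With spike-in totals SGK2 stood at 0.30 and did not pass.

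Partners of the other members gave the calls below. Over all genes tested 2.24% were higher and 3.14% lower, and nothing is read from the counts. Of 14 further carbonic anhydrases, 6 were tested and 1 fell: CA4, a membrane-anchored enzyme, had 0.377 ± 0.0171 CPM in DKO and 4.14 ± 1.61 CPM in control (-3.44, SE 0.49, edgeR adjusted p = 0.000989), from 4 and 6 counts in DKO and 29 and 66 counts in control. CA12, a hypoxia-induced relative of CA9, stood at -0.22 (SE 0.20). Of 10 genes around DDIT4 and mTORC1, 9 were tested and 1 fell: DEPTOR, an mTOR inhibitor, had 4.56 ± 1.90 CPM in DKO and 12.4 ± 0.888 CPM in control (-1.39, SE 0.30, edgeR adjusted p = 0.0144), and -1.03 without DKO replicate 1, where it did not pass. DEPTOR lies on chromosome 8, at -13.4 Mb from NDRG1, in the stretch with a bin median of -0.50. Without DKO replicate 2 the list gave 2 calls and without control replicate 1 it gave 3. The median of the 9 was -0.31, against 0.00 for all genes tested.

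No gene passed among 4 tested of 9 VEGF family members and receptors (0 at an unadjusted edgeR p under 0.05). None passed among 3 tested of 6 adrenomedullin receptor genes (1, lower, at that unadjusted p) or 12 tested of 15 mitophagy partners of BNIP3 (0). DESeq2 and limma-voom called 0 in each list. Since 5.37% of all genes tested passed in either direction, nothing is read from these counts. Without control replicate 1, 1 adrenomedullin receptor gene passed. The endothelial VEGF receptors FLT1, KDR and FLT4 did not reach the filter on counts, whereas the coreceptor NRP1 had 228 CPM in DKO and 254 CPM in control. RAMP1, a receptor accessory protein, stood at -0.91 (SE 0.34, edgeR adjusted p = 0.143), VEGFB at 0.44 (SE 0.29, edgeR adjusted p = 0.421), and MAP1LC3B, the autophagosome protein that BNIP3 binds, at 0.37 (SE 0.19, edgeR adjusted p = 0.297).

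The genes whose profile over the 4 libraries was nearest to that of NDRG1, by Euclidean distance of centred log2(CPM + 1) values among 9295 other tested genes with a mean of at least 10 CPM, were USH1C (0.127), CDX2 (0.195), TERT (0.309), KLF5 (0.312) and GGT1 (0.357). USH1C, a scaffold of the brush border, had 8.66 and 8.64 CPM in DKO, against 30.5 and 32.8 CPM in control. CDX2, an intestinal transcription factor, had 11.4 and 13.6 CPM in DKO, against 41.7 and 48.4 CPM in control. The 5 genes lie on chromosomes 11, 13, 5, 13 and 22, so none is a chromosomal neighbour of NDRG1. With 4 libraries of 2 clones, likeness here says little more than a similar ratio between the clones.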

How the data were processed

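Total RNA received ERCC spike-in RNA, ribosomal RNA was depleted, and directional libraries were read as 80 bases from 1 end, per the labels' protocols. The authors deposited raw counts per gene, not normalized. Tools named in the submitters' processing notes are STAR 2.5.3a, Subread 1.6.3, featureCounts and DESeq2, with the build hg38. The annotation, strand setting and treatment of multiply matching reads were not given in the sources used here. The 92 spike-in rows were left out of library sizes.

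The fit of DKO against control used edgeR 4.0.16 under R 4.3.3 (filterByExpr, TMM, quasi-likelihood test, group as the only term, 13359 genes, Benjamini-Hochberg); log2 fold changes are DKO over control, and their SE comes from that test. DESeq2 1.42.0 and limma-voom 3.58.1 were alternatives, beside other scalings and filters, a replicate term and leaving out each library. With 2 libraries against 2, a 2-sided exact permutation p cannot go below 0.333. Libraries of a clone differed beyond counting noise (chi-square per degree of freedom 19.7 in DKO and 24.2 in control), but the labels do not say whether they were separate cultures, so the p-values reflect only how these libraries vary, which can be technical. A count of 3 was 0.183 to 0.310 CPM. Intervals cover counting error only, since reads carried no molecular identifiers. Members and lists were chosen with earlier results of these data known. Genes named from the lists are those past the threshold, otherwise the one with the smallest adjusted p, with a few relatives named for their role after their values were seen. A further gene of the lists that the rule would name is not reported or plotted here; it stays in the counts and medians of its list.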

Additional observations from a re-analysis of the deposited data

How the results depend on the processing

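NDRG1 had the same sign and lay past the threshold in each of the 12 alternative settings, which describes a gene chosen on this contrast and is no independent support; no other member lay past it in any. With spike-in totals as library sizes the median of all genes was -0.68, NDRG1 stood at -2.63, the other 7 tested members ran from -0.91 to -0.39 and the NDRG1 neighbours had a median of -1.37; directions in the text are therefore relative to the median gene. EGLN3 (-0.40), HIF1A (-0.39) and ADM (-0.58) thus changed sign. Leaving out 1 library also turned the sign of DDIT4 (up to 0.16), BNIP3L (up to 0.17), BNIP3 (up to 0.039) and ADM (down to -0.10). None of these values lay past the threshold in any setting.

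Counts of genes past the threshold moved more. All genes gave 718, against 329 with spike-in totals, 1194 with no filter on low counts, 4021 with replicate number as a block and 218 (without DKO replicate 2) to 2172 (without control replicate 1) when 1 library was left out. With spike-in totals the count was 1 for the other non-glycolytic targets (5 in the text), 1 for the glycolytic targets (2), 1 for the NDRG family and kinases (2) and 2 for the carbonic anhydrases (1). With no filter it was 8 for the other non-glycolytic targets, 1 for the adrenomedullin axis (0) and 2 for DDIT4 and mTORC1 control (1). DESeq2 gave 1 for the glycolytic targets and 2 for DDIT4 and mTORC1 control, and a minimum of 1 CPM and leaving out mitochondrial genome genes each gave 2 for the last.

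With the replicate block the counts were 3 for oxygen sensing, 20 for the other non-glycolytic targets, 10 for the glycolytic targets, 1 for the adrenomedullin axis, 2 for the carbonic anhydrases, 3 for the mitophagy partners and 5 for DDIT4 and mTORC1 control. The labels give no pairing. Across the tested genes, the deviation of library 1 from its clone's mean log2 CPM had a correlation of 0.47 between DKO and control. Whether a number marks a shared batch or day is not given in the labels and was not tested. Leaving out 1 library gave 0 to 2 for oxygen sensing, 0 to 14 for the other non-glycolytic targets, 0 to 4 for the glycolytic targets, 0 to 2 for the NDRG family, 0 to 1 for the adrenomedullin axis and 0 to 3 for DDIT4 and mTORC1 control. In such fits the lone library is assumed to vary like the other clone's.

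With 10 neighbours on each side the medians were -0.63 for NDRG1, -0.028 for VEGFA, -0.011 for CA9, 0.054 for BNIP3, 0.13 for BNIP3L, 0.28 for EGLN3, -0.26 for HIF1A, 0.14 for ADM, 0.18 for ANKRD37 and 0.036 for DDIT4, so VEGFA, CA9 and HIF1A changed sign. The causes were not tested. Depth limits CA9 and ANKRD37, at most 27 counts in a library.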
